A study of Mus musculus with 10 samples.

Results

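Among the regions bound by p65 in mouse T cells, 1072 lay at a gene start or gene end and were listed in stimulated regulatory T cells (Treg) alone. They were chosen from the authors' 4 peak lists, 1 for each cell type with and without stimulation. Overlapping entries were merged within each list and then across lists, which gave 11923 union regions. A union region was kept where it held an entry of the stimulated Treg list and none of the other 3 lists, and where its strongest summit lay within 1 kb of either end of a protein-coding gene. Presence in the lists and distance to a gene end therefore chose these regions, and neither is a finding here. The stimulated Treg list held 10898 of the union regions, 4899 of them alone, which is 41.1% of the union and 45.0% of that list. Within 1 kb of a gene end the list had 3618 regions, of which 1072 (29.6%) were in it alone.

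The p65 (RelA) protein was mapped by chromatin immunoprecipitation and sequencing in Treg and conventional T cells (Tconv) from spleens and lymph nodes of C57BL/6 mice. Stimulated Treg were kept for 3 h on plates that carried anti-CD3, with anti-CD28 in solution and 10 ng/ml interleukin-2 (IL-2). Stimulated Tconv had the same treatment with 2 ng/ml IL-2, so cell type and IL-2 dose cannot be told apart. The other groups were unstimulated Treg and unstimulated Tconv, for which the sources used here give neither culture nor IL-2 dose. They name the strain but no other genotype, and no age, sex or number of animals per library. Each group had 2 libraries, pooled by the authors into 1 list, so no value below has a spread between replicates, and no test between conditions could be made. The input libraries were not used here. Read depth is unknown, and a deeper or cleaner stimulated Treg library would lengthen that list. The part of depth in the choice of these regions was not tested.

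NF-kB is a family of dimeric transcription factors held in the cytoplasm by inhibitors of the IkappaB family. Signals from the T cell receptor and CD28 lead to the destruction of these inhibitors, after which dimers that contain p65 enter the nucleus and bind kappaB sites in promoters and enhancers. In Treg, NF-kB takes part in the development and maintenance of the lineage, which is defined by the transcription factor Foxp3. A p65 region marks where the protein was recovered on chromatin and does not show that the nearby gene was regulated.

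The promoter sequences below were shown because they hold the kappaB consensus and are the 8 of highest fold enrichment among members whose summit lay inside a promoter window. Windows come from RefSeq, assembly GRCm38.p6 (the coordinates of mm10), and reach from 250 bases before to 50 after an annotated gene start. Each excerpt of 120 bases is written 5′ to 3′ on the strand of the gene, with every match to the consensus in capitals, on either strand. The consensus is a decamer that opens with guanines and a purine and closes with pyrimidines and cytosines.
Casp4, chr9:5308701-5308820, plus strand: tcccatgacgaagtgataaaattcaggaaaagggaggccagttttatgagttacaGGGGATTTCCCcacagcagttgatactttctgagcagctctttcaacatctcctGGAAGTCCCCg
Acot9, chrX:155262284-155262403, plus strand: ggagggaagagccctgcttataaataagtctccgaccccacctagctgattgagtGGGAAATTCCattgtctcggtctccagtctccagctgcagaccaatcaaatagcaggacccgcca
Rdx, chr9:52047807-52047926, plus strand: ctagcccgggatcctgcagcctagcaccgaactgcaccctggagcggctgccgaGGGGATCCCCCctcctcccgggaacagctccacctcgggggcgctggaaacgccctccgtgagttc
Slc35b2, chr17:45563774-45563893, plus strand: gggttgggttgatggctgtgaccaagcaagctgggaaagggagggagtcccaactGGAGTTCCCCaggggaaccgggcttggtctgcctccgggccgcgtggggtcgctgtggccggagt
Sdhb, chr4:140961056-140961175, plus strand: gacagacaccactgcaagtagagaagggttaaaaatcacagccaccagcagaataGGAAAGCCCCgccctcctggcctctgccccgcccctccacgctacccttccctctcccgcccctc
Ddi2, chr4:141723543-141723662, minus strand: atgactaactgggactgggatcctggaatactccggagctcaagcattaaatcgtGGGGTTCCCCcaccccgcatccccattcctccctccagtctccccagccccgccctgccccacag
Tank, chr2:61578487-61578606, plus strand: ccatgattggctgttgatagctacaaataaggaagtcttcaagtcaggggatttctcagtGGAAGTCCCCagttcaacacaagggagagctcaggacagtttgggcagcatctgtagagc
Tnfaip8l1, chr17:56162288-56162407, plus strand: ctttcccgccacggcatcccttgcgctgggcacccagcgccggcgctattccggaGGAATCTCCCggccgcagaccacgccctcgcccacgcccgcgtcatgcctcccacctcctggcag

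The Casp4 region had a summit fold enrichment of 14.3, and its summit lay 37.5 bases from the centre of the decamer. Casp4 encodes an inflammatory caspase that senses cytosolic lipopolysaccharide. The region at Acot9, a mitochondrial acyl-CoA thioesterase, also had a fold of 14.3 and its decamer lay 37.5 bases from the summit. Tank, an adaptor of TRAF signalling, had a fold of 12.2 with the decamer 53.5 bases from the summit. Tnfaip8l1, of the TNFAIP8 family, had a fold of 11.7 and the shortest distance of the 8, at 8.5 bases. The shared promoter of Slc35b2 and Nfkbie (fold 12.7) had its decamer 74.5 bases from the summit, and Nfkbie encodes the inhibitor IkappaB-epsilon. In Rdx (fold 12.8), whose product links actin to the membrane, the distance was 81.5 bases. In Ddi2 (fold 12.5), which encodes an aspartic protease, it was 154.5 bases, and in Sdhb (fold 12.5), a subunit of succinate dehydrogenase, it was 198.5 bases. A match of letters near a summit is a description and not a proven site.

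Most members held no such decamer in the window. Of members whose summit lay inside a window, the 3 of highest fold without one, at Icam1 (fold 17.9), Samsn1 (17.2) and Tgtp1 (17.2), are shown for contrast, with no capitals. Icam1 is an adhesion molecule that binds LFA-1, Samsn1 is an adaptor protein of lymphocytes, and Tgtp1 is an interferon-inducible GTPase of T cells.
Icam1, chr9:21015801-21015920, plus strand: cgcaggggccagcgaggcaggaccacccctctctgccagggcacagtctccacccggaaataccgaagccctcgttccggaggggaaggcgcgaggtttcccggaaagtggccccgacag
Samsn1, chr16:75909278-75909397, minus strand: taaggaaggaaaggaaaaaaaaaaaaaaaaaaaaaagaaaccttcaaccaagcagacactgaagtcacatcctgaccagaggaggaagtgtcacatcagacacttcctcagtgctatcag
Tgtp1, chr11:48992289-48992408, minus strand: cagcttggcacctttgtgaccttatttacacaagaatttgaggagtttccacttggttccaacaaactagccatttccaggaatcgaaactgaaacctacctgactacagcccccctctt
For these windows, no match says only that the letters of the consensus are not in the 300 bases.

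In strength, members sat low within the stimulated Treg list. Their median fold enrichment at the summit, a ratio over local background given by the authors' peak caller, was 8.72 (quartiles 7.90 and 10.0, range 5.22 to 28.6). The median was 9.57 for the 3827 regions in stimulated Treg alone that lay beyond 1 kb of a gene end. It was 13.3 for the 679 gene-end regions in both stimulated lists only and 13.3 for the 1190 gene-end regions in all 4 lists. Of the 1072 members, 284 reached a fold of 10, 38 a fold of 15 and 6 a fold of 20. The median width was 942 bp in members and 769 bp in the regions in stimulated Treg alone beyond 1 kb. It was 1346 bp in the both-stimulated regions and 1522.5 bp in the regions of all 4 lists. Width spans the merged entries of every list that holds a region, so merging itself widens these last classes, and the widths support no difference in peak shape.

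The 3618 gene-end regions of the stimulated Treg list were ordered by fold and cut into 10 groups of 361 or 362. Members made up 4 of the 362 in the strongest group (1.10%), 132 of 362 (36.5%) in group 6 and 206 of 361 (57.1%) in the weakest. The weakest entry of the stimulated Tconv list had a −log10 p of 38.1, against 26.6 in the stimulated Treg list, 15.1 in the unstimulated Treg list and 13.3 in the unstimulated Tconv list. Below the value of 38.1 lay 598 of the 1072 members (55.8%, 95% Wilson interval 52.8 to 58.7%), against 10.9% of the both-stimulated regions and 11.5% of those in all 4 lists. For those members, the stimulated Tconv list holds no entry as weak. The other 474 members lay at or above that value. Strength decides in part which list a region enters, so these values describe the members and support no difference between the cell types.

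**Figure D1:**
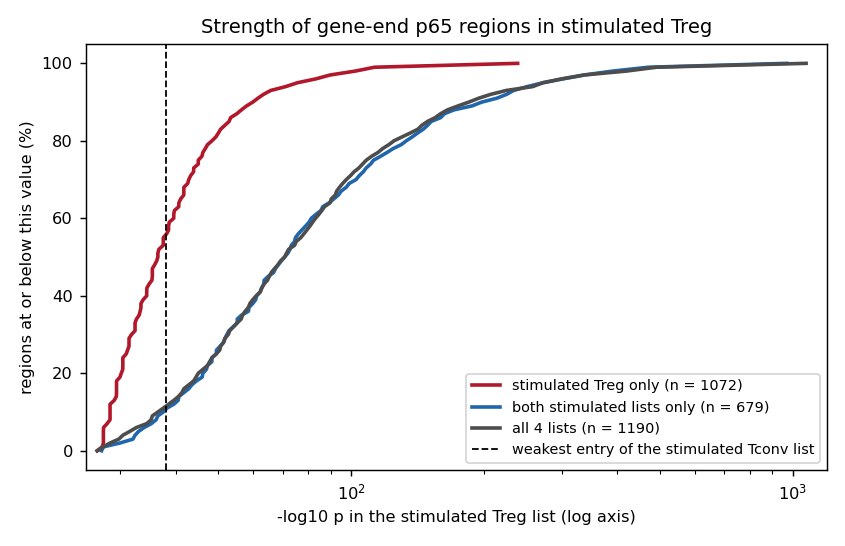
Cumulative percent of gene-end regions (vertical axis) at or below each −log10 p of the stimulated Treg list (horizontal log axis), for regions in stimulated Treg only (red, n = 1072), both stimulated lists only (blue, n = 679) and all 4 lists (grey, n = 1190). The dashed line is the weakest entry of the stimulated Tconv list, 38.1, with 55.8% of the red regions below it.

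The 12 members of highest fold were not, on the whole, at genes of the NF-kB or Treg lists. The strongest lay 352 bases inside the start of Gm5544 (chr3:97929930-97931010, fold 28.6), for which no role is given here. Slc14a1, a urea transporter, followed with a fold of 27.7, and its region lay 202798 bp from the nearest region of the stimulated Tconv list. Among the others, Ucp2, a mitochondrial carrier protein, had a fold of 22.1 with a summit 893 bp before its start, and a stimulated Tconv region began 1018 bp away. Nos3 (endothelial nitric oxide synthase) and Atg9b (an autophagy protein) shared a region of fold 21.2, and Gpr157, a G protein-coupled receptor, had 20.2.

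Further down were Nnmt (nicotinamide N-methyltransferase, fold 19.8), the 3′ end of Vmo1 (18.9), Slc17a5 (a lysosomal sialic acid exporter, 18.6), 3300002I08Rik (18.5), the Lnx2 and Polr1d region (18.4) and Socs2 (18.3). Polr1d encodes a subunit shared by RNA polymerases I and III, and Socs2 a feedback inhibitor of cytokine signalling. Gpr157 and Socs2 had no other region of any of the 4 lists within 50 kb. At the other extreme, the member of lowest fold was at Alyref2 (5.22). Limk2 and Bms1 (both 5.93) had a −log10 p of 26.6, the lower limit of the list.

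The limit of 1 kb fell inside a continuous range of distances. Just inside it were Cyb5r3 (summit at 1000 bp, fold 8.196), Vps54 (995 bp, 10.4) and Pmepa1 (993 bp, 10.4). Just outside were Smad6 (1002 bp, fold 8.07), Stk35 (1004 bp, 9.55) and Kdm4d (1007 bp, 7.55), which were not members. An overlap of 1 bp was likewise a sharp rule. In 19 members (1.77%) a region of another list lay within 500 bp without touching, as at Zfp36, where a stimulated Tconv region began 184 bp away, and at Il6ra, where it was 245 bp. Within 5 kb, a stimulated Tconv region was found for 115 members (10.7%).

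Members lay at starts far more often than at 3′ ends, although the rule did not tell these apart. Strand was available for the nearest gene of 853 members, of which 796 (93.3%, 91.4 to 94.8%) were nearer the start and 57 (6.68%) nearer the 3′ end. Starts and ends here are the outer edges of genes in the annotation, which can differ from the starts of promoter windows. The region at Sdf4 and Tnfrsf4 counted as a 3′ end at 226 bp, but a promoter window's start lay 141 bp from its summit. At Socs3 these distances were 974 bp to the gene edge and 4 bp to a window's start. The 3′-end share was 7.23% in the both-stimulated class (difference −0.551 percentage points, 95% Newcombe interval −3.43 to 2.104). It was 2.04% in the class of all 4 lists, which is 4.64 points lower than in members (2.80 to 6.65). The intervals are over regions, which are not replicates, and cover counting error only. The 3′-end members included Nfkbid (fold 17.9), Ctla4 (12.8), Nrp1 (11.2), Cish (10.6) and the second region of Gbp7 (13.7). Median folds were 9.05 at 3′ ends, 8.72 at starts and 8.72 where strand was unknown.

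Summits of the start-proximal members were centred a few bases before the start. The median position was −14 bp (quartiles −85 and 69 bp), with 449 upstream and 347 downstream. It was −30 bp in the both-stimulated class and −22 bp in the class of all 4 lists. A summit within 100 bp of a gene edge was found for 53.9% of members, against 45.1% of both-stimulated regions (difference 8.85 points, 4.05 to 13.6) and 59.6% of regions in all 4 lists (difference −5.66 points, −9.73 to −1.57). One summit can serve several genes, and 188 members (17.5%) had 2 or more protein-coding genes with an end within 1 kb. That share was 14.1% in the both-stimulated class and 19.2% in the class of all 4 lists. The strongest of these shared regions lay at Nos3 and Atg9b, at Lnx2 and Polr1d, at Trim17 and the histone gene H2aw (fold 17.03), at Mettl17 and Slc39a2 (14.8), and at Hnrnpll and 4933407O12Rik (14.3).

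**Figure D2:**
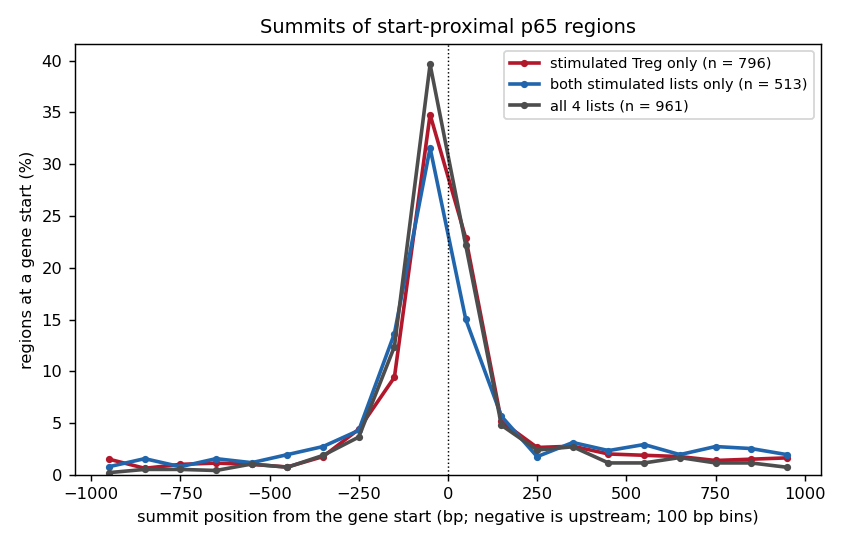
Percent of start-proximal regions (vertical axis) by summit position from the gene start in 100 bp bins (horizontal axis, bp, negative is upstream), for regions in stimulated Treg only (n = 796), both stimulated lists only (n = 513) and all 4 lists (n = 961). All 3 curves peak in the bin just before the start, with medians of −14, −30 and −22 bp.

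Within 1 kb of a member lay 1248 protein-coding genes, 5.70% of the 21887 in the annotation. Any gene-end region of the stimulated Treg list was found at 4166 genes (19.0%), of which 30.0% had a member. A both-stimulated region lay at 771 genes (3.52%) and a region of all 4 lists at 1418 (6.48%). These percentages are the background for the gene lists below. Gene lists are described by counts, with no set test.

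**Figure D3:**
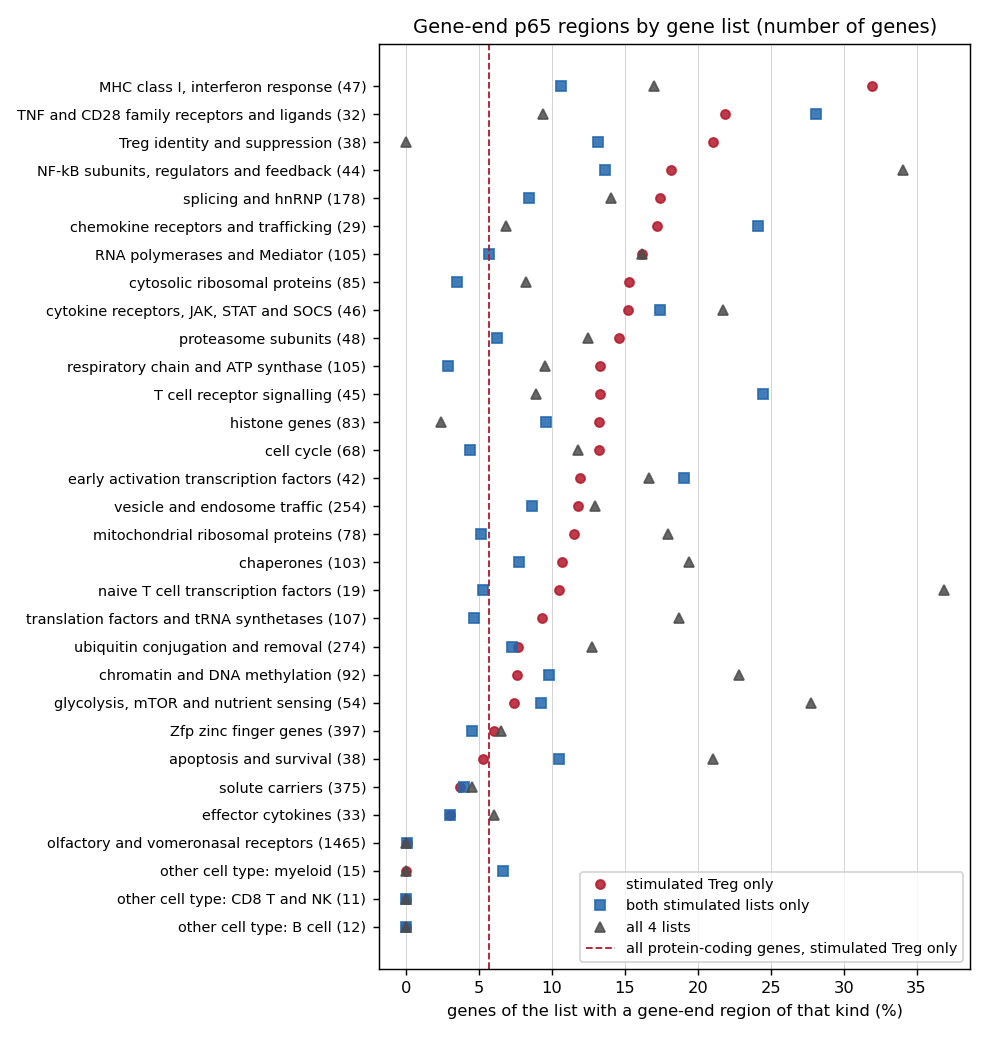
Percent of the genes of each list (number of genes in brackets) with a gene-end region in stimulated Treg only (red circles), in both stimulated lists only (blue squares) and in all 4 lists (grey triangles). The dashed line is the 5.70% of all protein-coding genes with a region in stimulated Treg only. The list of MHC class I and interferon response genes is highest among the red circles, at 31.9%, and the Treg identity list has no gene in all 4 lists.

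Of 38 genes of Treg identity and suppression, 8 (21.1%) had a member, 5 (13.2%) a both-stimulated gene-end region and 0 a gene-end region in all 4 lists. Foxp3, the lineage-defining transcription factor, had a member at chrX:7578796-7580036 with a fold of 14.8, a −log10 p of 76.9 and a summit 204 bp before its start. Within 50 kb of Foxp3 lay 4 other regions of the stimulated Treg list and 0 of each of the other 3 lists. Its promoter around the summit held no kappaB consensus, and 120 bases of it are shown because the gene defines the cells.
Foxp3, chrX:7579426-7579545, plus strand: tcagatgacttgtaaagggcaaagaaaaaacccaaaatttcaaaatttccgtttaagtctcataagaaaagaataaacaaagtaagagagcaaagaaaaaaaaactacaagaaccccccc
Ctla4, an inhibitory receptor that competes with CD28, had a member near its 3′ end (chr1:60915577-60917710, fold 12.8, 641 bp from the gene edge). A stimulated Tconv region lay 6162 bp from it, and 9 other stimulated Treg regions lay within 50 kb of the gene. Socs2 had a fold of 18.3 and Nrp1, a semaphorin co-receptor found on thymus-derived Treg, 11.2.

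The strongest regions at the remaining genes of that list had folds of 8.39 to 10.2. The genes were Pdcd1 (the inhibitory receptor PD-1, fold 10.2), Izumo1r (folate receptor 4, 9.997), Capg (an actin-capping protein, 9.10) and Tnfrsf4 (the co-stimulatory receptor OX40, 8.39). For Pdcd1 and Tnfrsf4, regions of the stimulated Tconv list lay 562 and 514 bp away without overlap. Of the 8 genes, 7 had a member at or above the weakest −log10 p of the stimulated Tconv list, which 543 of all protein-coding genes (2.48%) had. Many genes of this list were put there because Treg express them, so their number does not test the identity of the cells.

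Regulators of NF-kB itself were well represented in the stimulated Treg list as a whole, with a gene-end region at 33 of 44 genes, and 8 of the 44 (18.2%) had a member. Regions in all 4 lists were found at 15 (34.1%). Nfkbid encodes IkappaB-NS, a nuclear IkappaB protein required for Foxp3 induction in mice, and had a fold of 17.9 with the summit 701 bp from its 3′ end (chr7:30429051-30430490). Ikbke, a kinase related to the IkappaB kinases, had a fold of 12.8 with the summit 735 bp before the start. Nfkbie had 12.7 from the promoter shared with Slc35b2. Rnf31, the catalytic subunit of the linear ubiquitin ligase, shared a region with Irf9 (fold 11.5).

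The adaptors of the kinase TAK1 were present as Tab2 (fold 10.4) and Tab3 (8.56), and Traf2, an adaptor of TNF receptors, had 8.89. Ikbkb, the catalytic IkappaB kinase of the canonical route, had 7.70. Of these 8 genes, 5 lay at or above the weakest −log10 p of the stimulated Tconv list. Nfkbie and Nfkbid had 4 and 3 stimulated Tconv regions elsewhere within 50 kb, whereas Ikbke and Tab2 had 0.

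Among 46 genes of cytokine receptors, JAK, STAT and SOCS proteins, 7 had a member (15.2%), 8 (17.4%) a both-stimulated region and 10 (21.7%) a region in all 4 lists. The members were at 3 of the SOCS-family feedback inhibitors, Socs2 (fold 18.3), Socs3 (12.5) and Cish (10.6). Both chains of the IL-6 receptor were present, Il6ra (15.5, summit 721 bp after the start) and Il6st (8.07, 112 bp before the start). The kinase gene Tyk2 had a fold of 9.89 and the transcription factor gene Stat6 8.07. IL-2 acts through this pathway, and its dose differed between the stimulated cell types. The part of the dose in these members was not tested.

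Receptors and ligands of the TNF and CD28 families had members at 7 of 32 genes (21.9%) and both-stimulated regions at 9 (28.1%). Besides Ctla4, Pdcd1 and Tnfrsf4 these were Cd27 (a co-stimulatory receptor that shares its region with Tapbpl, fold 13.1), Cd274 (a ligand of PD-1, 10.0), Tnfsf14 (the ligand LIGHT, 8.89) and Tnfrsf1a (TNF receptor 1, 8.22). Chemokine receptors and trafficking molecules had members at 5 of 29 (17.2%) and both-stimulated regions at 7 (24.1%). Icam1 had a fold of 17.9 with the summit 79 bp before its start, and no stimulated Tconv region lay nearer than 37347 bp to this region. Cd69, an early activation antigen that holds T cells in lymphoid tissue, had a fold of 16.6 and 7 stimulated Tconv regions elsewhere within 50 kb. Itgb1 (integrin beta 1) had 8.89 and Gpr183 (an oxysterol receptor) 7.88.

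T cell receptor signalling genes had 6 members among 45 (13.3%) and 11 both-stimulated regions (24.4%). Ptpn22, a phosphatase that restrains receptor signalling, had a fold of 14.3, and the adaptor Sla2 9.06. The other 4, Nfatc1, Nfatc3, Ptprc and Cd3e, had folds of 6.4 to 7.57, below the median of members. Of 42 early activation transcription factors and related genes, 30 had a gene-end region of the stimulated Treg list and 5 (11.9%) a member. These were Jun (an AP-1 subunit, fold 12.8), Zfp36 (an RNA-binding protein that promotes decay of cytokine mRNAs, 12.3), Ier3 (9.05), Atf3 (8.89) and Nr4a2 (8.15). Jun had 0 other regions of any list within 50 kb. Counted over the genes with any stimulated Treg gene-end region, the share with a member was 53.3% in the Treg identity list, 41.2% in the TNF and CD28 families and 35.7% among trafficking molecules. It was 26.1% in T cell receptor signalling, 25.9% in cytokine receptors and their signalling, 24.2% in NF-kB regulators and 16.7% among early activation factors, against 30.0% over all such genes. Of 33 effector cytokines, 1 had a member, Osm (oncostatin M, fold 9.88). No member lay at any of the 12 B cell, 15 myeloid or 11 CD8 T and NK cell marker genes. Any gene-end region of the stimulated Treg list was found at 1 of them, a myeloid gene. With a background of 5.70%, lists this short do not test the purity of the cells. Among the 1465 olfactory and vomeronasal receptor genes, 1 had a member (0.068%).

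**Figure D4:**
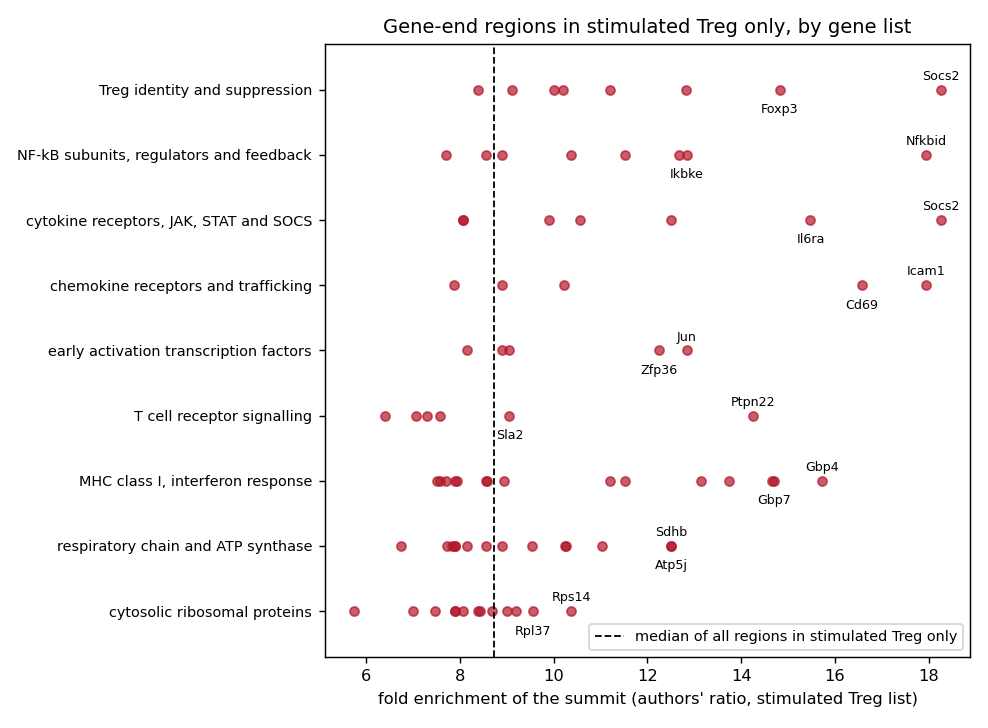
Fold enrichment at the summit (horizontal axis, the authors' ratio in the stimulated Treg list) of the strongest region in stimulated Treg only at each gene of 9 gene lists, with the 2 highest of each list named. The dashed line is the median of all 1072 regions, 8.72. Socs2 (18.3), Nfkbid (17.9) and Icam1 (17.9) lie farthest to the right among these 9 lists, and most ribosomal and respiratory chain genes lie near the line.

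The list with the highest share was that of MHC class I and interferon response genes, with members at 15 of 47 genes (31.9%). Both-stimulated regions were found at 5 of them (10.6%) and regions in all 4 lists at 8 (17.02%). Of the 31 with any stimulated Treg gene-end region, 48.4% had a member, against 30.0% over all such genes. Guanylate-binding proteins, interferon-inducible GTPases of host defence, supplied Gbp4 (fold 15.7), Gbp7 (14.7 at the start and 13.7 at the 3′ end), Gbp5 (11.2) and Gbp2 (8.95, shared with Gbp2b). Isg15, a ubiquitin-like modifier, had 14.7 and Nlrc5, the transactivator of MHC class I genes, 13.7. Irf9, a subunit of the interferon-activated complex ISGF3, had 11.5 from the region shared with Rnf31.

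The others were Tapbpl (an MHC class I peptide editor, 13.1), Zbp1 (a nucleic acid sensor, 8.58), Bst2 (tetherin, 8.56), Ifit1 (7.95, at the start of Ifit1bl2), Usp18 (which removes ISG15, 7.90), Tap2 (a peptide transporter, 7.70), Psme2 (a proteasome activator subunit, 7.57) and Isg20 (an exonuclease, 7.52). A member at or above the weakest −log10 p of the stimulated Tconv list was present at 10 of the 47 genes (21.3%). The Gbp and Ifit genes are families of similar copies, and the sources used here do not say how reads that match several copies were placed, so the position within a family is uncertain.

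The windows nearest to 8 of these members were in the promoter table. Of these windows, 6 held the letters of interferon-stimulated elements (GAAA, any 2 bases, GAAA), which 3.35% of all 21263 promoter windows held, and 4 held the kappaB consensus. Both were found in the windows of Gbp2, Gbp5 and Bst2. Many genes were put in this list for their response to interferon, so the count of 6 does not set members apart. Windows of list genes without a member were not examined. Excerpts of 4 windows follow, with matches to these letters on either strand in capitals.
Gbp7, chr3:142530228-142530347, plus strand: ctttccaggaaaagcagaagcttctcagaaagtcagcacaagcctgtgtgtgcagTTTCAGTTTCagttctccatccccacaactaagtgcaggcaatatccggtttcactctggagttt
Isg15, chr4:156200832-156200951, minus strand: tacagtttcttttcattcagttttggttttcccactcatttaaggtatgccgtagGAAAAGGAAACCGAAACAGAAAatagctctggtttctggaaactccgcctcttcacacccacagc
Gbp5, chr3:142496714-142496833, plus strand: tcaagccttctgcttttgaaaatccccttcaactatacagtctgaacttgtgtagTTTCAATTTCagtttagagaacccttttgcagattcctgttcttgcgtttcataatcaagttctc
Bst2, chr8:71537532-71537651, minus strand: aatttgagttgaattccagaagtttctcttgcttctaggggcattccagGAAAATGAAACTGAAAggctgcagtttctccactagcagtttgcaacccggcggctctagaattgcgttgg
In Isg15 the summit lay 0.5 bases from the centre of the nearest match. The distance was 37.5 bases in Gbp7, 59.5 in Bst2 and 61.5 in Gbp5. Over all members, the share of windows with these letters was 4.11%, which differed from all windows by 0.760 points (−0.451 to 2.41).

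Lists of genes with general roles in the cell held a larger number of genes with a member, and most of these lists were themselves larger. Most of the lists for them were drawn by patterns in gene symbols and hold some genes of other function. Splicing and hnRNP genes had members at 31 of 178 (17.4%), such as Hnrnpll (fold 14.3), a regulator of CD45 splicing, the DEAD-box helicase gene Ddx55 (13.3) and Lsm6 (12.8). RNA polymerase and Mediator subunits had members at 17 of 105 (16.2%), with Polr1d (18.4), Med16 (11.7) and Med31 (10.5) the strongest. Cytosolic ribosomal proteins had members at 13 of 85 (15.3%) and both-stimulated regions at 3 (3.53%), and the highest fold among them was 10.4, at Rps14. Of the 29 ribosomal protein genes with any stimulated Treg gene-end region, 44.8% had a member, against 30.0% over all such genes.

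Respiratory chain and ATP synthase genes had members at 14 of 105 (13.3%), led by Sdhb and Atp5j (both 12.5), the second from a promoter shared with Gabpa, and Ndufb6 (11.0). Proteasome subunits had 7 of 48 (14.6%), among them Psmd5 (11.2), Psmd9 (10.0) and Psma3 (9.79), and histone genes 11 of 83 (13.3%), among them H2bc3 (16.0). Cell cycle genes had 9 of 68 (13.2%), with Ccnk (11.7, shared with Setd3), Cdk12 (10.4) and Ccnh (10.1) first. Vesicle and endosome genes had 30 of 254 (11.8%), the strongest at Vps54 (10.4), a tethering factor of the Golgi, and Snx27 (9.54), a sorting nexin. Members at or above a −log10 p of 38.1 lay at 1.575% of vesicle and 1.942% of chaperone genes, below the 2.48% of all genes. The other lists of this paragraph and the one before it stood above 2.48%. Counted over genes with any stimulated Treg gene-end region, the share with a member was 42.3% in histone genes and 34.6% in cell cycle genes. Respiratory chain, proteasome, splicing and RNA polymerase genes also stood above the 30.0% over all such genes. Mitochondrial ribosomal proteins stood at 30.0%. Vesicle genes (28.8%), translation factors and tRNA synthetases (23.8%) and chaperones stood below it. Mitochondrial ribosomal proteins had 9 of 78 (11.5%), led by Mrpl2 (12.3) and Mrpl52 (10.7). Chaperones had 11 of 103 (10.7%), none above the 9.38 of Fkbp15, and translation factors and tRNA synthetases 10 of 107 (9.35%), led by the mitochondrial glutamyl-tRNA synthetase gene Ears2 (11.0) and by Eif1b (10.4).

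Several lists stood close to the background of 5.70% of all genes. Over genes with any stimulated Treg gene-end region, most of these lists were below the 30.0% of all such genes. That share was 15.2% in chromatin regulators, 14.8% in glycolysis and mTOR genes, 12.5% in apoptosis genes and 24.1% in solute carriers. Ubiquitin genes and the factors of naive T cells were also below 30.0%, and Zfp genes were above it. Ubiquitin conjugation and removal had members at 21 of 274 genes (7.66%), with Usp6nl (16.3), which encodes a GTPase-activating protein of Rab proteins, Fbxl4 (13.1) and the E1 enzyme gene Uba6 (12.3) first. Chromatin regulators had 7 of 92 (7.61%), with the remodeller gene Chd3 (12.1), the deacetylase gene Hdac6 (8.89) and Smarce1 (8.76), a subunit of the BAF complex, first. Glycolysis and mTOR genes had 4 of 54 (7.41%), among them Rraga (13.7), a small GTPase that signals amino acids to mTORC1, and Mtor itself (8.77, shared with Exosc10). Zfp zinc finger genes had 24 of 397 (6.05%). Apoptosis genes had 2 of 38 (5.26%), Pmaip1 (the BH3-only protein Noxa, 11.2) and Casp9 (9.22), and solute carriers 14 of 375 (3.73%). Chromatin regulators and glycolysis genes had more regions in all 4 lists, at 22.8% and 27.8% of their genes. Transcription factors of naive T cells had members at 2 of 19, Gfi1 (9.88) and Ets1 (7.85), and regions in all 4 lists at 36.8%. Ribosomal, histone and proteasome genes have processed or near-identical copies, so the placement of reads there is likewise uncertain.

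Having a member did not mean that the gene lacked p65 in the other lists. Of the 1248 genes, 603 (48.3%, 45.6 to 51.1%) had a stimulated Tconv region elsewhere within 50 kb, against 37.5% of all protein-coding genes. The share with another stimulated Treg region was 67.7%, against 48.5% of all genes counted with any region. An unstimulated Treg region was within 50 kb of 38.1% of member genes (33.4% of all) and an unstimulated Tconv region within 50 kb of 37.1% (32.5% of all). No region of any of the 3 other lists was found within 50 kb for 522 genes (41.8%, 39.1 to 44.6%), against 53.9% of all genes. Socs2, Jun, Hnrnpll, Fbxl4 and Lsm6 had no region of any list in that span besides the member. A stimulated Tconv region at the gene's own start or end, separate from the member, was present at 51 genes (4.09%), against 11.9% of all genes, where any such region counts. The rule left out gene-end regions that overlap a stimulated Tconv region, so this lower share is not a finding about the member genes.

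At 14 genes, 2 members lay within 1 kb of the gene ends. By summed fold these were led by Gbp7 (28.4), Slc9b2 (a sodium/proton exchanger, 26.3), Rgs2 (a regulator of G protein signalling, 23.2), Gbp4 (23.2) and Pmepa1 (an inhibitor of TGF-beta signalling, 21.9). Members were spread over the chromosomes, from 2.69 per 100 protein-coding genes on X to 6.46 on chromosome 11, and 0 were found on Y, which has 256 such genes in the table.

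Promoter windows were available for 778 members, 501 both-stimulated regions and 955 regions of all 4 lists with an annotated start within 1 kb of the summit. The summit itself lay inside the window for 558, 340 and 760 of these, in the same order. The shares below count windows with the summit inside or not, unless stated. The kappaB consensus occurred in 9.0% of member windows (7.18 to 11.2%), in 11.2% of both-stimulated windows and in 13.2% of windows in all 4 lists. It occurred in 9.25% of all promoter windows. The difference of members from all promoters was −0.253 points, with an interval that included 0 (−2.11 to 2.00). The share was lower than in all 4 lists (difference −4.20 points, −7.12 to −1.21). With the summit inside the window, the consensus was in 8.96% of member windows, 12.1% of both-stimulated windows and 13.6% in all 4 lists. With a looser form (GGG, any 5 bases, CC), members stood above all windows, at 67.4% against 57.0% (difference 10.3 points, 6.87 to 13.6). In all 4 lists the looser form was in 75.6% of windows. In 4 member windows the consensus overlapped a GGGCGG match. The share was 10.3% in the 195 windows of members with the highest fold (6.74 to 15.3%) and 8.21% in the 195 of lowest fold (5.11 to 12.9%).

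Where the summit itself lay in the window and a consensus was present, the median distance between them was 71.5 bp in members (n = 50), 50.5 bp in both-stimulated regions (n = 41) and 40.5 bp in regions of all 4 lists (n = 103). Within 50 bp lay 42.0%, 46.3% and 56.3% of these matches, in the same order of classes. A stricter form (GGGAA, any base, TTCC) occurred in 8 member windows (1.03%), one of them that of Acot9 printed above. It was in 0.998% of both-stimulated windows, 0.314% in all 4 lists and 0.362% of all windows. The difference of members from all windows was 0.666 points (0.152 to 1.66).

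The ETS, SP1 and CRE letters were more common in member windows than in all windows. The ETS letters CCGGAAG were present in 26.3% of member windows, 23.8% of both-stimulated windows, 21.4% of windows in all 4 lists and 11.6% of all windows, a difference of 14.8 points from all windows (11.8 to 18.02). With the summit inside the window, the ETS share was 29.9% in members, 28.8% in both-stimulated regions and 22.6% in all 4 lists. The SP1 and KLF letters GGGCGG were present in 68.4% of member windows and 67.7% of both-stimulated windows, against 79.4% in all 4 lists (difference −11.0 points, −15.1 to −6.84) and 46.2% of all windows. The CRE letters TGACGTCA were present in 5.01% of member windows, 4.99% of both-stimulated windows, 3.87% in all 4 lists and 2.23% of all windows (difference of members from all windows 2.78 points, 1.44 to 4.56). AP-1 letters TGANTCA were present in 3.86% of member windows, 4.39% of both-stimulated windows, 3.98% in all 4 lists and 6.99% of all windows (difference of members from all windows −3.13 points, −4.33 to −1.50).

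Members differed from the regions of all 4 lists in the NRF1 palindrome (GCGCA followed by TGCGC), found in 0.900% of member windows and 9.95% of windows in all 4 lists (difference −9.05 points, −11.2 to −7.07). The NF-Y letters CCAAT were found in 41.0% of member windows against 30.1% in all 4 lists (difference 10.95 points, 6.42 to 15.4). Both-stimulated windows stood near the members, at 0.399% for NRF1 and 42.1% for NF-Y. Intervals of the difference of members from them included 0 (−0.642 to 1.49 and −6.65 to 4.385), so neither contrast is particular to the members. Against all windows, intervals of the difference included 0 for both NRF1 (−0.922 to 0.526) and NF-Y (−0.657 to 6.36). From the both-stimulated windows, members differed in the NFAT letters GGAAAA, at 20.2% against 29.5% (difference −9.36 points, −14.3 to −4.52), while all windows stood at 22.3%. With the summit inside the window, the NFAT share was 20.3% in members and 34.7% in both-stimulated regions. For YY1 (AAGATGG), RUNX (TGTGGT), STAT (TTCNNNGAA) and the interferon element, intervals of the difference between members and either other class included 0. Against all windows, members were higher for YY1 by 2.11 points (0.337 to 4.29) and differed for RUNX by −3.14 points (−5.28 to −0.641). In all, 14 patterns were compared with 3 sets of windows, both strands searched, and the intervals are not adjusted for that number.

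Base composition also differed between the sets. The median GC content of windows was 61.3% in members, 60.7% in both-stimulated regions, 65.7% in regions of all 4 lists and 56.3% over all windows. The median observed-to-expected CpG ratio was 0.82, 0.778, 0.914 and 0.567 in the same order. The part of base composition in the motif shares was not tested.

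**Figure D5:**
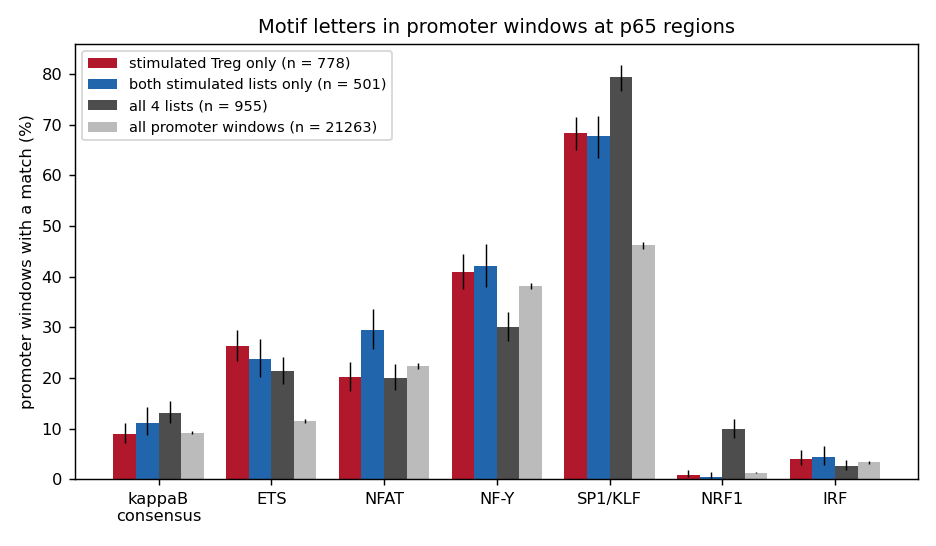
Percent of promoter windows (vertical axis) with a match to the letters of each factor (horizontal axis), for regions in stimulated Treg only (n = 778), both stimulated lists only (n = 501), all 4 lists (n = 955) and all promoter windows (n = 21263). Error bars are 95% Wilson intervals over windows. The red kappaB bar (9.0%) stands at the level of all windows (9.25%), the ETS bar (26.3%) above it (11.6%), and the NRF1 bar of all 4 lists (9.95%) above the other NRF1 bars.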

How the data were processed

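The data were p65 ChIP-seq peak lists of Treg and Tconv, stimulated or not, with 2 libraries pooled in each of the 4 lists. Per the submitters' processing notes, the tools were MACS2 2.1.1.20160309, BWA 0.7.15-r1140 and Trim Galore 0.4.1, with build mm10. By their names, the lists hold pooled peaks that passed a conservative reproducibility filter (IDR), blacklist removed. The sources used here do not say how input libraries were used. The score of each peak, the fold (a ratio over local background), and the −log10 of its p-value are the authors' deposited values. They served to describe and rank regions within a list, and depth is unknown.

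Lists were merged at 1 bp overlap. Genes, 21887 of them protein-coding, came from RefSeq's table of GRCm38.p6, and strand, known for 17492, from its promoter table of 21263 windows. Shares carry 95% Wilson intervals and differences Newcombe intervals, which cover counting error only. No p-value was computed. Named genes were the 12 members of highest fold, up to 3 of each of 31 gene lists, those at the 1 kb limit, those with several members, the 5 strongest shared by several genes, and the printed promoters. A few of these genes are left out of the text. Other list members, further 3′-end examples, the interferon and Foxp3 sequences were chosen after their values were seen. The members and lists were chosen with earlier results of these data known. Of the list symbols, 2 matched no gene of the table. The steps were tested on simulated data, with Python 3.11.15, pandas 2.3.3, NumPy 2.4.6, SciPy 1.17.1 and Matplotlib 3.10.9. Alternatives were other gene-end distances, overlap rules, thresholds, genes and motifs. The design foresaw windows around summits, and promoter windows were used in their place.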

Additional observations from a re-analysis of the deposited data

How the results depend on the processing

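No paired analysis was possible because the libraries of each group were pooled into 1 list before deposit, and for the same reason no library could be left out. Of the 46 recomputed summary values, 29 stayed within their interval or within 1.5 times, and 17 did not. With all 4 lists held to the highest of their lower −log10 p limits, there were 628 members, 24.6% of gene-end stimulated Treg regions were in that list alone, the median fold was 10.3 and the kappaB share 11.3%. With the stronger 50% of the stimulated Treg list by −log10 p, these were 132 members, 8.37%, 13.1 and 13.1%, the start share was 86.0%, and 52.8% of member genes had a stimulated Tconv region within 50 kb. Of the members of the main setting, 474 reached the common limit of 38.1, so the 628 also hold regions that were not members before. The common limit also removed weaker entries of the unstimulated lists. In the promoter windows of those 474 members the kappaB share was 9.79%. The start share was 96.0% at a distance of 500 bp and 89.7% at 2 kb. At 2 kb, 31.2% of gene-end regions were in the list alone and 51.4% of member genes had a stimulated Tconv region within 50 kb. With all annotated genes, 31.7% were in the list alone. A looser motif (GGG, any 5 bases, CC) was in 67.4% of member windows, above the 57.0% of all windows, and a stricter one (GGGAA, any base, TTCC) in 1.03%, against 0.362% of all windows. Of 62 gene list counts at 500 bp and 2 kb, 53 stayed within 1.5 times and 9 did not. The Treg identity list had 5 genes with a member at 500 bp and 13 at 2 kb, and the NF-kB list 5 and 9. The cause of these changes was not tested. Thresholds differ between lists, so membership depends on the strength that each list required.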
